A study of Mus musculus with 18 samples.

Results

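The germline genes described here were Dazl, Sycp3, Mael, Taf7l, Hormad1, Stk31, Slc25a31, Asz1 and Tex101, 9 of the 45706 genes in the count table, chosen by symbol as genes whose promoters are known to be controlled by DNA methylation. All 9 were found under these symbols and all 9 passed the filter on low counts, which left 16619 genes for testing. RNA was sequenced from mouse induced pluripotent stem cells (PSCs) that were wt for Hmga2 or carried a knockout (KO) of this chromatin protein, at 0 h and at 24 h of induction into epiblast-like cells (EpiLCs), in 6 groups of 3 biological replicates, or 18 libraries. The wt cells were 1 clone and each KO group was 1 clone, KO#1 or KO#2, so a difference between a KO clone and wt cells cannot be told apart from other differences between clones. At 0 h the cells grew over inactivated fibroblast feeders with LIF and 2 kinase inhibitors, and at 24 h they had been moved onto a matrix without feeders in medium with Activin A and bFGF, so the feeder layer and the state of the cells changed together.

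The promoters of many germline genes are rich in CpG dinucleotides and are methylated when the embryo implants, after which the genes stay silent in somatic cells. They are released when methylation is erased in primordial germ cells. Mouse PSCs kept with kinase inhibitors have little DNA methylation, and the passage to EpiLCs is accompanied by a rise of the de novo methyltransferases. A second layer of repression on such promoters is the PRC1.6 complex, which is brought to DNA by the E2F6-DP1 pair and by the MGA-MAX pair, the latter binding E-boxes. The products serve germ cells in different ways. HORMAD1 and SYCP3 belong to the axis of meiotic chromosomes. DAZL binds and regulates germ cell mRNAs, whereas MAEL and ASZ1 act with small RNAs against transposons and STK31 is a germ cell protein with a tudor domain. TAF7L is the germ cell counterpart of a subunit of the general transcription factor TFIID, SLC25A31 is the ADP/ATP carrier of germ cell mitochondria, and TEX101 is a glycoprotein of the germ cell surface.

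The promoter windows of the 9 genes, which reach from 250 bases before to 50 bases after the RefSeq start in GRCm38.p6, held between 15 CpG dinucleotides at Sycp3 and 29 at Stk31, with a median of 22. The median over 17492 protein-coding genes was 13, with quartiles of 3.75 and 24, and all 9 windows were above that median. Each window was searched on both strands for the E-box CACGTG, which reads the same on both strands and contains a CpG, and for the E2F motif GGCGGGA, which reads TCCCGCC on the other strand; the matches of the 2 motifs did not overlap one another. The E-box was found in 6 of the 9 windows (Hormad1, Sycp3, Mael, Taf7l, Stk31 and Slc25a31) and in 7.90% of all promoters. The E2F motif was found in 3 of the 9 windows (Hormad1, Mael and Slc25a31), all of which also held an E-box, against 14.9% of all promoters with the E2F motif and 1.66% with both. These are matches of letters and show no binding, and DNA methylation was not measured in these samples.

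**Figure D1:**
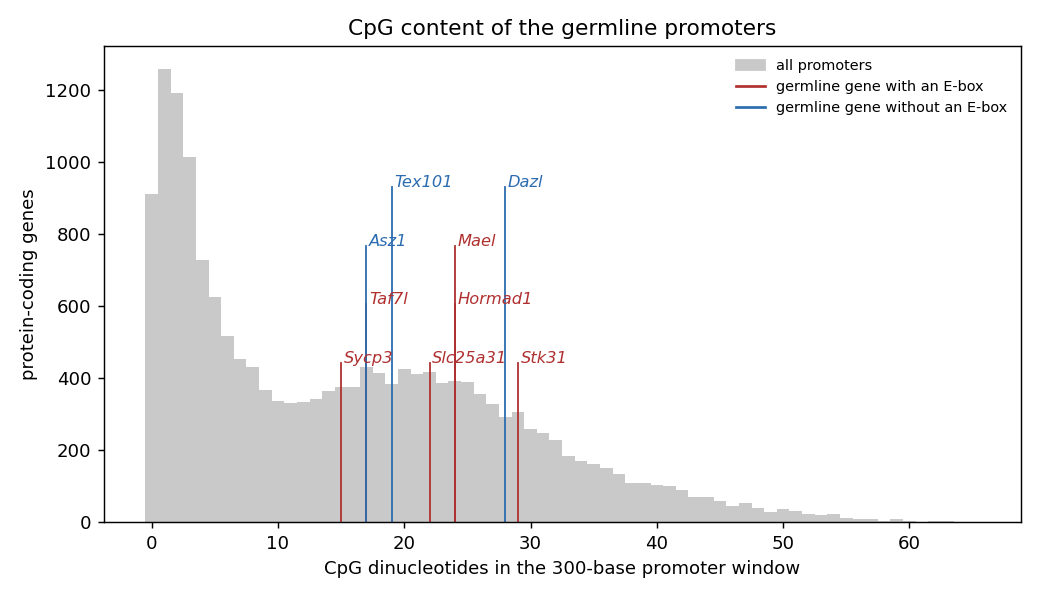
CpG dinucleotides in the 300-base promoter windows. Grey bars count protein-coding genes (y axis, number of genes) at each number of CpG dinucleotides (x axis), and vertical lines mark the 9 germline genes, in red where the window holds the E-box CACGTG and in blue where it does not. The lines of Asz1 and Taf7l coincide at 17 and those of Mael and Hormad1 at 24; all 9 lie above the median of 13 over all genes.

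The windows that hold both motifs are those of Hormad1 (chr3:95559427-95559726, plus strand), Mael (chr1:166238695-166238994, minus strand) and Slc25a31 (chr3:40708621-40708920, plus strand), and they are printed 5′ to 3′ with every match in capitals. The window of Sycp3 (chr10:88459337-88459636, plus strand) is shown beside them because it has 2 E-boxes while its RNA, as given below, was not called higher at 24 h in any line.
Hormad1: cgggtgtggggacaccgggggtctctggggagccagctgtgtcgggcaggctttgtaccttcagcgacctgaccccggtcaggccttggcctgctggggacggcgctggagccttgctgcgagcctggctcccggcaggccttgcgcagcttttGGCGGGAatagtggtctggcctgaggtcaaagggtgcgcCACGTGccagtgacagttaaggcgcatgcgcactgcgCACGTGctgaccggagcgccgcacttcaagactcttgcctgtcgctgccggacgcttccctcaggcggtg
Mael: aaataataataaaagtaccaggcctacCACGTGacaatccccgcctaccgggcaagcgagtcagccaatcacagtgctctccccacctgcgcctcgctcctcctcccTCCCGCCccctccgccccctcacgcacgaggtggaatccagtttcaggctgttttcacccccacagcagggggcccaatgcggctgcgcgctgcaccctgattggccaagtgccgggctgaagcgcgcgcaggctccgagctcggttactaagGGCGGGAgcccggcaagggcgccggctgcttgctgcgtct
Slc25a31: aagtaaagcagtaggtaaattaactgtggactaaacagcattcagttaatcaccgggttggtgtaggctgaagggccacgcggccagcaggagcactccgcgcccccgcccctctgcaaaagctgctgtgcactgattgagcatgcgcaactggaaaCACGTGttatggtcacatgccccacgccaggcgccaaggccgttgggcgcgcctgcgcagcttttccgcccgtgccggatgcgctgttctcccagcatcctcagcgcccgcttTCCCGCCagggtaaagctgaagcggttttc
Sycp3: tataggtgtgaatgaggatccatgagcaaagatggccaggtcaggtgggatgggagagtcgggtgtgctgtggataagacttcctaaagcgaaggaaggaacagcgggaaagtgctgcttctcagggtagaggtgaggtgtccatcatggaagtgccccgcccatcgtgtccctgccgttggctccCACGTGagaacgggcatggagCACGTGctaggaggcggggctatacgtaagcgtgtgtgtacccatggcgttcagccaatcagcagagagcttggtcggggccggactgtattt
The first bases of the 2 E-boxes lay 57 and 20 bases before the start in Hormad1 and 64 and 43 bases before it in Sycp3, against 223 in Mael and 93 in Slc25a31. Taf7l and Stk31 had 1 E-box each, 49 and 55 bases before the start. Dazl had neither motif but 28 CpG dinucleotides, shown in capitals in its window (chr17:50293571-50293870, minus strand).
Dazl: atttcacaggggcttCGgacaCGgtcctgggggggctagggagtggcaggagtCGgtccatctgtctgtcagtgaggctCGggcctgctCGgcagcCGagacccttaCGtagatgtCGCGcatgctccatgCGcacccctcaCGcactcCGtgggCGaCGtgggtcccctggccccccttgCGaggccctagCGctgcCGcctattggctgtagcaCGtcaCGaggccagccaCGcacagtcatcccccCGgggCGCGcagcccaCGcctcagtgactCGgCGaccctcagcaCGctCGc
Asz1 and Tex101 held neither motif, and the RefSeq start of Tex101 lies 4625 bases from the start given by GENCODE, so its window shows 1 of its possible promoters.

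In GRCm38 with GENCODE M21, the protein-coding genes lie at chr17:50279395-50293636 (Dazl, minus strand), chr10:88459569-88473236 (Sycp3, plus), chr1:166201201-166238747 (Mael, minus), chrX:134460118-134476490 (Taf7l, minus), chr3:95559677-95587671 (Hormad1, plus), chr6:49395604-49469501 (Stk31, plus), chr3:40708855-40726096 (Slc25a31, plus), chr6:18050964-18109061 (Asz1, minus) and chr7:24668007-24676675 (Tex101, minus). Sycp3 overlaps Chpt1 and Stk31 contains the pseudogene Gm17060, both on the opposite strand, and since the use of strand in counting was not stated, reads of these pairs may not be told apart.

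Totals per library ran from 3466436 to 23872837 counts, and 3 counts, taken as the limit that a count of 0 allows, were worth 0.116 to 0.984 counts per 1000000 (CPM) of the scaled library size, for counting error only. Replicate 1 of wt cells at 0 h was the shallowest library, with 38 counts over the 9 genes together, and 6 of the 9 were detected in it. Hmga2 itself measured 13.3 to 22.4 CPM in wt cells at 0 h, 1.75 to 10.2 in KO#1 and 1.84 to 8.25 in the KO#2-labelled libraries. At 24 h it measured 5.51 to 5.93 CPM in wt cells, 0.871 to 3.67 in KO#1 and 3.02 to 10.5 in the KO#2-labelled libraries, 1 of which was above all wt libraries. RNA read outside a deleted stretch checks no deletion, and the deleted stretch was not given in the sources used here. Summed CPM of 6 pluripotency markers ran from 1897 to 3787 at 0 h and from 1090 to 1900 at 24 h, and those of 3 markers of the primed epiblast from 8.45 to 34.0 and from 55.5 to 264. Prm1 and Tnp1, which mark late spermatids, were at 0 counts in every library. Summed CPM of 8 fibroblast markers ran from 110 to 390 in wt cells at 0 h, where Dcn was at 0. They were 183 to 514 in KO#1 at 0 h, and 331 to 898 in the KO#2-labelled libraries. At 24 h they were lowest in wt cells (19.0 to 34.6), followed by KO#1 (38.7 to 51.8) and the KO#2-labelled libraries (71.0 to 219), with no overlap. Between KO#1 and wt cells none of the 8 was called at 0 h, and 1 was called higher and 1 lower at 24 h. Reads on protein-coding genes were 52.6% to 66.7% of all reads counted in wt cells at 0 h, 62.0% to 77.4% in KO#1 and 76.3% to 79.1% in the KO#2-labelled libraries. At 24 h they were 41.6% to 63.4% in wt cells, 41.3% to 63.1% in KO#1 and 82.3% to 84.7% in the KO#2-labelled libraries. The part of fibroblast RNA and of this share in the results was not tested.

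In wt cells 7 of the 9 germline genes rose between 0 h and 24 h, and none fell. Of all tested genes 26% were called higher in this comparison and 24.7% lower by the quasi-likelihood test of edgeR with Benjamini-Hochberg adjustment, which was fitted to all 18 libraries and called genes at an adjusted p under 0.05. The median log2 fold change was 2.22 over the 9 genes and 0.03 over all genes. The 7 genes were Tex101, Mael, Hormad1, Stk31, Slc25a31, Taf7l and Dazl, and in each of them every library at 24 h lay above every library at 0 h, which held for 30.2% of all genes. For Tex101 this rests on the listed values, since its 0 counts in replicate 1 at 0 h allow up to 0.984 CPM, above the 0.902 CPM of replicate 2 at 24 h. In bulk RNA, more cells with a transcript and more of it per cell cannot be told apart.

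Mael, the piRNA pathway gene, measured 0.656, 2.20 and 1.42 CPM in the wt libraries at 0 h and 15.3, 15.7 and 12.8 CPM at 24 h. The 3 libraries at 24 h were close to one another and far above those at 0 h. The log2 fold change was 3.20 ± 0.50 (SE, edgeR, adjusted p = 6.93e-05), a 9.21-fold rise. Tex101 measured 0, 0.551 and 0.0834 CPM at 0 h, from 7 counts in all, and 3.75, 0.902 and 3.21 CPM at 24 h. Its log2 fold change of 3.30 ± 0.92 (edgeR, adjusted p = 0.00679) rests on a group close to the limit of detection, and the 0 in replicate 1 allows a level of up to 0.984 CPM.

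Of the genes of the meiotic chromosome axis, Hormad1 rose and Sycp3 did not. Hormad1 measured 1.97, 30.5 and 13.4 CPM in the wt libraries at 0 h and 123, 109 and 41.6 CPM at 24 h. Replicates spread widely at both times, but the lowest library at 24 h remained above the highest at 0 h, and the log2 fold change was 2.51 ± 0.65 (edgeR, adjusted p = 0.00391). Sycp3 measured 0.656, 2.94 and 1.42 CPM at 0 h and 1.29, 1.90 and 0.432 CPM at 24 h. The groups overlapped, with a log2 difference of -0.63 ± 0.61 (edgeR, adjusted p = 0.406).

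Stk31 measured 0.656, 4.13 and 1.42 CPM at 0 h and 18.9, 12.9 and 6.12 CPM at 24 h in wt cells, a log2 fold change of 2.45 ± 0.63 (edgeR, adjusted p = 0.00387). Taf7l measured 1.97, 3.21 and 1.501 CPM at 0 h and 8.80, 10.0 and 6.12 CPM at 24 h, a log2 fold change of 1.87 ± 0.46 (edgeR, adjusted p = 0.00291). Both genes thus moved from a few CPM to a level that no library at 0 h reached. Dazl measured 6.56, 15.2 and 9.17 CPM at 0 h and 45.7, 24.6 and 21.3 CPM at 24 h, a log2 fold change of 1.53 ± 0.58 (edgeR, adjusted p = 0.0357). Slc25a31 measured 0, 1.93 and 0.667 CPM at 0 h and 7.10, 4.71 and 2.78 CPM at 24 h, a log2 fold change of 2.22 ± 0.85 (edgeR, adjusted p = 0.0372). The groups did not overlap in these 2 genes either, but both calls depended on single libraries. Dazl was not called without replicate 1 or 3 at 0 h or without replicate 1 or 2 at 24 h (log2 fold changes 1.28, 1.43, 1.09 and 1.62), and neither was Slc25a31 (1.86, 1.94, 1.81 and 2.20).

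Asz1, which works with piRNAs in germ granules, had 0, 5 and 2 counts at 0 h and 19, 10 and 6 counts at 24 h in wt cells. Its levels were 0, 0.459 and 0.167 CPM against 1.11, 1.00 and 0.371 CPM, and its log2 difference of 1.62 ± 0.90 was not called (edgeR, adjusted p = 0.143). At these counts a change of this size could not be separated from the spread between replicates.

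**Figure D2:**
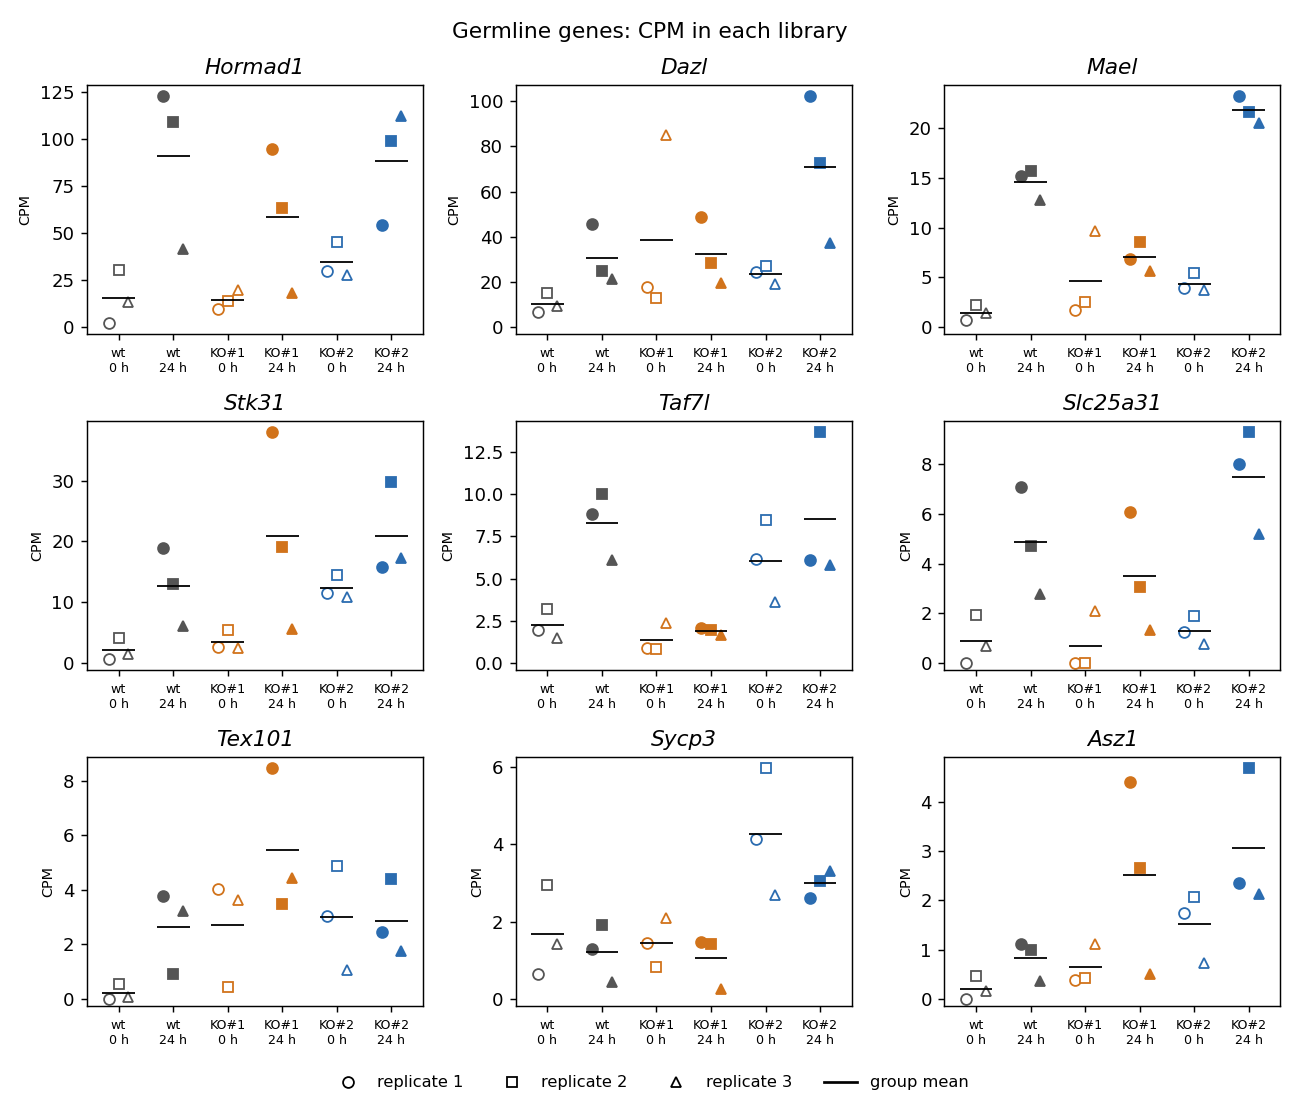
CPM (y axis, linear, a scale of its own in each panel) of the 9 germline genes in each of the 18 libraries, by line and time (x axis). Open symbols are 0 h and filled symbols 24 h, the symbol shape gives the replicate and the bar the group mean; in Mael the wt libraries at 24 h (12.8 to 15.7 CPM) stand clear of those at 0 h (0.656 to 2.20 CPM), and in Dazl 1 library of KO#1 at 0 h stands at 84.9 CPM.

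Divided by the exonic length of each gene, Hormad1 had the highest mean level of the 9 genes in wt cells at both times, 8.84 ± 8.30 CPM per kb (SD, n = 3) at 0 h and 52.8 ± 25.2 at 24 h. At 0 h its libraries overlapped those of Dazl, the next in order at 2.70 ± 1.17 CPM per kb. At 24 h they did not overlap those of Mael (8.42 ± 0.91) or Dazl (7.998 ± 3.46), which overlapped each other. Asz1 was the lowest in wt cells at both times, at 0.0737 ± 0.0821 and 0.293 ± 0.142 CPM per kb, overlapping Tex101 at 0 h and Sycp3 at 24 h. Hormad1 also led in KO#1 at 24 h (34.0 ± 22.3) and in the KO#2-labelled libraries at 0 h (19.9 ± 5.56) and 24 h (51.2 ± 17.6), whereas in KO#1 at 0 h Dazl had the higher mean (10.1 ± 10.5 against 8.22 ± 2.92), with overlapping libraries.

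In KO#1 cells 2 of the 9 germline genes rose between 0 h and 24 h, Hormad1 and Stk31, where 20.1% of all genes were called higher. The median log2 fold change was 0.94 over the 9 genes and 0.00 over all genes. Stk31 measured 2.61, 5.43 and 2.51 CPM at 0 h and 38.0, 19.0 and 5.60 CPM at 24 h, the 1 gene of the 9 whose groups did not overlap (22.0% of all genes were higher in this way), with a log2 fold change of 2.64 ± 0.62 (edgeR, adjusted p = 0.00293). Hormad1 measured 9.51, 13.6 and 19.6 CPM at 0 h and 94.8, 63.2 and 18.2 CPM at 24 h. Its replicate 3 at 24 h lay within the range at 0 h, and the log2 fold change was 2.03 ± 0.64 (edgeR, adjusted p = 0.0175), which was not called without replicate 1 or 2 at 0 h or replicate 1 at 24 h (1.81, 1.98 and 1.49).

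The remaining 7 genes did not pass in KO#1, among them Mael and Dazl. Mael measured 1.69, 2.51 and 9.69 CPM at 0 h and 6.83, 8.59 and 5.60 CPM at 24 h (log2 difference 0.50 ± 0.44, edgeR, adjusted p = 0.378). Dazl measured 17.9, 12.7 and 84.9 CPM at 0 h and 48.5, 28.5 and 19.4 CPM at 24 h (log2 difference -0.28 ± 0.55, edgeR, adjusted p = 0.706). In both genes replicate 3 of KO#1 at 0 h was the highest of all 6 KO#1 libraries. That library had the highest level of its group in 7 of the 9 genes. In Slc25a31 it held all 36 counts of its group, the other replicates being at 0. Without it 5 genes were called higher at 24 h in KO#1, and Mael was among them with a log2 fold change of 1.77 (edgeR, adjusted p = 0.00137). Without replicate 3 at 24 h 4 were called, and without replicate 1 or 2 at 0 h or replicate 1 at 24 h only 1. All genes called in either direction, 6774 with all libraries, were 7160 without replicate 3 at 0 h and 6654 without replicate 3 at 24 h. In the other fits named here they were 4573, 5625 and 5092.

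Taf7l measured 0.912, 0.835 and 2.34 CPM at 0 h and 2.06, 1.94 and 1.68 CPM at 24 h in KO#1 (log2 difference 0.34 ± 0.48, edgeR, adjusted p = 0.597). No KO#1 library reached the lowest wt library at 24 h, 6.12 CPM. Asz1 went from 0.391, 0.418 and 1.11 CPM to 4.41, 2.66 and 0.498 CPM (1.79 ± 0.72, edgeR, adjusted p = 0.0541), and Slc25a31 from 0, 0 and 2.10 CPM to 6.10, 3.07 and 1.31 CPM (1.90 ± 0.84, edgeR, adjusted p = 0.078), neither of them called. Tex101 (0.94 ± 0.67) and Sycp3 (-0.59 ± 0.63) were not called either.

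In the KO#2-labelled libraries, 3 of the 9 germline genes rose between 0 h and 24 h, Mael, Slc25a31 and Dazl, where 12.7% of all genes were called higher. In 6 of the 9 genes, these 3 with Hormad1, Stk31 and Asz1, every library at 24 h was above every library at 0 h, which held for 22.8% of all genes. The median log2 fold change was 1.01 over the 9 genes and -0.03 over all genes. Mael measured 3.90, 5.49 and 3.74 CPM at 0 h and 23.3, 21.7 and 20.5 CPM at 24 h, a log2 fold change of 2.32 ± 0.44 (edgeR, adjusted p = 0.0009). The replicates were tight at both times, as in wt cells at 24 h. Slc25a31 measured 1.26, 1.89 and 0.767 CPM at 0 h and 7.995, 9.29 and 5.21 CPM at 24 h (2.51 ± 0.77, edgeR, adjusted p = 0.023). Dazl measured 24.3, 26.9 and 19.09 CPM at 0 h and 102, 72.8 and 37.1 CPM at 24 h (1.59 ± 0.56, edgeR, adjusted p = 0.0436). The Dazl call was lost without any 1 of 5 of the 6 libraries, and the Slc25a31 call without replicate 1 or 3 at 0 h or replicate 2 at 24 h; in each of these 3 fits Mael alone was called.

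Hormad1 measured 29.8, 45.4 and 27.9 CPM at 0 h and 54.1, 99.3 and 112 CPM at 24 h in the KO#2-labelled libraries, and its log2 difference of 1.36 ± 0.61 did not pass (edgeR, adjusted p = 0.11). It passed with no filter on low counts (1.38, edgeR, adjusted p = 0.000103) and with only these groups fitted (1.37, edgeR, adjusted p = 0.0155). Stk31 measured 11.5, 14.5 and 10.8 CPM at 0 h and 15.7, 29.8 and 17.3 CPM at 24 h (0.77 ± 0.55, edgeR, adjusted p = 0.323). Both genes started at 0 h from levels near or above the highest wt library at that time, 30.5 CPM for Hormad1 and 4.13 CPM for Stk31. Taf7l (0.49 ± 0.41), Tex101 (-0.06 ± 0.64), Asz1 (1.01 ± 0.62) and Sycp3 (-0.51 ± 0.53) were not called.

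**Figure D3:**
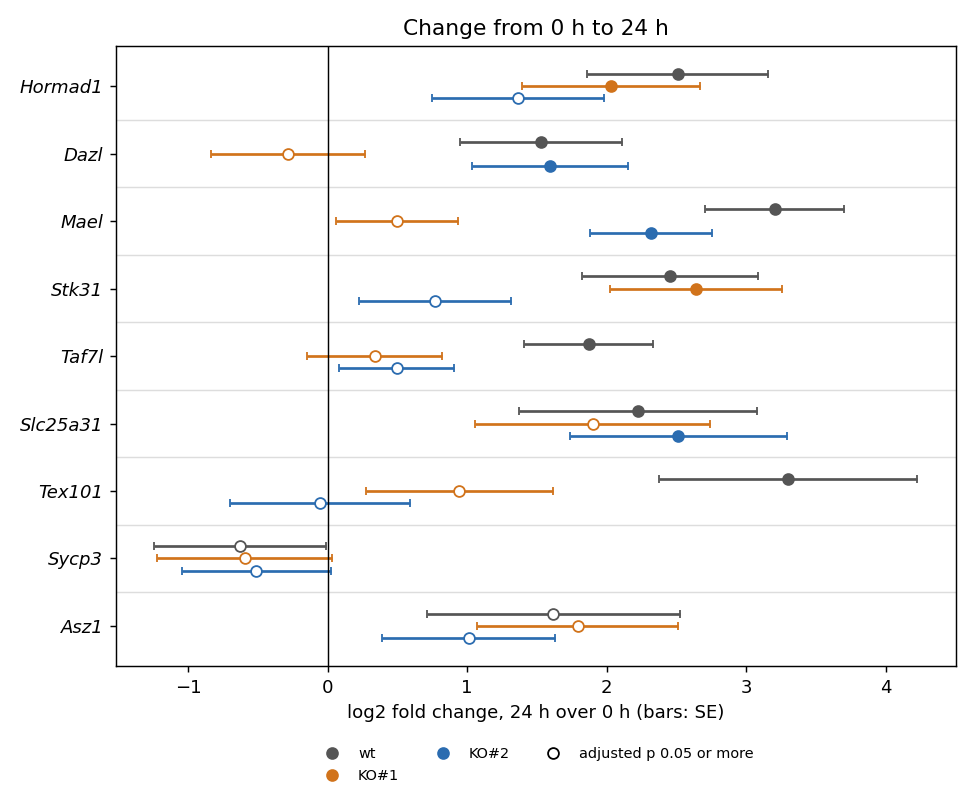
Log2 fold change from 0 h to 24 h (x axis) of the 9 germline genes (y axis) in wt cells, KO#1 and the KO#2-labelled libraries. Points are the estimates of edgeR, bars 1 SE to each side, and filled points have an adjusted p under 0.05, which holds for 7 genes of wt cells, 2 of KO#1 and 3 of the KO#2-labelled libraries; Sycp3 is below 0 in all 3 lines and not called in any.

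Whether the change over 24 h differed between a KO clone and wt cells was tested as an interaction, and 0 of the 9 germline genes passed in either clone, where 0.391% of all genes were called for KO#1 and 1.47% for the KO#2-labelled libraries. At an unadjusted p under 0.05, edgeR gave 3 genes for KO#1 (Mael, Taf7l and Dazl) and 2 for the KO#2-labelled libraries (Tex101 and Taf7l), all with a lower value in the KO clone. The share of all genes under this unadjusted limit was not counted. The largest difference for KO#1 with such a p was that of Mael, at -2.71 ± 0.66 on the log2 scale (edgeR, adjusted p = 0.0801), and for the KO#2-labelled libraries that of Tex101, at -3.36 ± 1.14 (edgeR, adjusted p = 0.11). DESeq2 called 276 of 16619 genes in the first comparison and 1409 in the second. Of the 9 genes, DESeq2 called Mael in the first (-2.66, adjusted p = 0.00869) and Tex101 in the second (-3.39, adjusted p = 0.035). Leaving out single libraries moved these values. That of Mael was -1.43 without replicate 3 of KO#1 at 0 h, the library with the high Mael level, and between -3.12 and -1.43 over all such fits (edgeR, adjusted p 0.0436 to 0.288), and that of Tex101 was between -5.24 without replicate 2 and -2.78 without replicate 3 of wt cells at 0 h. Without replicate 2 the wt libraries at 0 h held 0 and 1 counts of Tex101, so -5.24 rests on the limit of detection. The fact that 7 genes passed in wt cells and fewer in the KO clones therefore does not by itself show a different response. The comparisons share their wt libraries and are not independent of each other.

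At 0 h, before induction, 1 of the 9 germline genes was higher in KO#1 than in wt cells, where 3.99% of all genes were called higher, and 5 were higher in the KO#2-labelled libraries, where the share was 21.5%. None was called lower in either clone. With library sizes alone 3 genes were called in KO#1, where Dazl and Mael were added, and 8 in the KO#2-labelled libraries, where Dazl, Hormad1 and Sycp3 were, while the median over all genes moved from 0.02 to 0.16 and from 0.10 to 0.54 on the log2 scale. Of all 16619 genes, those called in either direction fell in this setting, from 1108 to 801 and from 6329 to 5508. The median log2 difference from wt cells was 0.53 over the 9 genes for KO#1, against 0.02 over all genes, and 1.42 for the KO#2-labelled libraries, against 0.10.

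The 5 genes were Stk31, Tex101, Taf7l, Mael and Asz1. Stk31, at 11.5, 14.5 and 10.8 CPM in the KO#2-labelled libraries against 0.656, 4.13 and 1.42 CPM in wt cells, was 5.31-fold higher (log2 difference 2.41 ± 0.63, edgeR, adjusted p = 0.00723). Taf7l, at 6.14, 8.45 and 3.60 CPM against 1.97, 3.21 and 1.501 CPM, was 2.68-fold higher (1.42 ± 0.46, edgeR, adjusted p = 0.0222). Mael, at 3.90, 5.49 and 3.74 CPM against 0.656, 2.20 and 1.42 CPM, was 2.77-fold higher (1.47 ± 0.49, edgeR, adjusted p = 0.0268). In all 3 genes, as in Tex101, Asz1 and Dazl, the lowest library labelled KO#2 was above the highest wt library, which held for 29.7% of all genes. For Asz1 this rests on the listed values, since its 0 in replicate 1 of wt cells allows up to 0.984 CPM, more than the lowest of the KO#2-labelled libraries. Tex101 measured 3.05, 4.86 and 1.06 CPM (3.46 ± 0.92, edgeR, adjusted p = 0.00791) and Asz1 1.75, 2.07 and 0.719 CPM (2.50 ± 0.86, edgeR, adjusted p = 0.0297). Each was compared with 7 counts over the 3 wt libraries. Dazl (1.14 ± 0.58, edgeR, adjusted p = 0.122), Sycp3 (1.23 ± 0.58), Hormad1 (1.10 ± 0.62) and Slc25a31 (0.33 ± 0.87) were not called.

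The number of calls in the KO#2-labelled libraries at 0 h fell to 2 without replicate 1 of wt cells or replicate 2 of KO#2 and to 1 without replicate 3 of wt cells. All genes called in either direction fell as well, from 6329 to 4459, 4834 and 4483 in the same order. Mael (1.25 to 1.38) and Taf7l (1.11 to 1.34) were not called in any of these fits, Asz1 in none of them nor without replicate 1 of KO#2 (2.16 to 2.38), and Tex101 not without replicate 3 of wt cells (2.89). Stk31 was called in every one of these fits. Summed fibroblast markers were higher in the KO#2-labelled libraries, with 4 of 8 called higher at 0 h, and so was the share of reads on protein-coding genes, at 76.3% to 79.1% against 52.6% to 66.7%. Their part in the difference was not tested.

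In KO#1 at 0 h the gene that passed was Tex101, at 4.04, 0.418 and 3.62 CPM against 0, 0.551 and 0.0834 CPM in wt cells. Replicate 2 of KO#1 was within the wt range, and the log2 difference was 3.39 ± 0.93 (edgeR, adjusted p = 0.0342). The call was lost without replicate 1 or 3 of either group, with log2 differences of 3.08 and 3.13 without the KO#1 libraries and 3.17 and 2.81 without the wt libraries. Dazl (1.88 ± 0.59, edgeR, adjusted p = 0.0623) and Mael (1.64 ± 0.50, edgeR, adjusted p = 0.0568) were close to the threshold, mainly through replicate 3 of KO#1. Both were called when replicate 1 or 2 of KO#1 was left out, giving 2 and 3 calls in all, where 884 and 937 of all genes were called. Hormad1 (-0.16 ± 0.63), Stk31 (0.53 ± 0.67), Taf7l (-0.60 ± 0.50), Slc25a31 (-0.16 ± 0.93), Sycp3 (-0.24 ± 0.62) and Asz1 (1.42 ± 0.94) differed from wt cells by no more than the spread between replicates allows to be called.

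At 24 h, 1 of the 9 germline genes was lower in KO#1 than in wt cells, where 3.61% of all genes were called lower, and none was higher. This gene was Taf7l, which lies on the X chromosome, at 2.06, 1.94 and 1.68 CPM in KO#1 against 8.80, 10.0 and 6.12 CPM in wt cells. The groups were far apart, with a 4.37-fold lower level in KO#1 (log2 difference -2.13 ± 0.45, edgeR, adjusted p = 0.00437), and the call held when any 1 library was left out. Mael, at 6.83, 8.59 and 5.60 CPM against 15.3, 15.7 and 12.8 CPM, did not overlap either, as held in the lower direction for 13.5% of all genes, but its difference of -1.06 ± 0.43 did not pass (edgeR, adjusted p = 0.138). It passed with only these groups fitted (-1.03, edgeR, adjusted p = 0.0316) and with no filter on low counts (-1.05, edgeR, adjusted p = 0.0354), but not with the replicate number as a block (edgeR, adjusted p = 0.145). That block was shared by all 6 groups, so it was no paired test of this comparison. The numbers paired the libraries in this comparison, and besides Taf7l the level was lower in KO#1 in all 3 pairs for Mael, Hormad1 and Slc25a31 and higher in all 3 for Asz1 and Tex101. How many of all genes kept 1 direction in all 3 pairs was not counted, so this is a description only. Asz1 (1.599 ± 0.68), Tex101 (1.03 ± 0.66), Stk31 (0.72 ± 0.55) and Dazl (0.07 ± 0.55) had positive values and Hormad1 (-0.64 ± 0.61), Slc25a31 (-0.48 ± 0.75) and Sycp3 (-0.20 ± 0.62) negative ones, none called. The value of Dazl turned negative, at -0.03, with library sizes alone. Without replicate 3 of KO#1 at 24 h a second gene, Asz1, was called, with a difference of 2.14, as it was with no filter on low counts (1.61).

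In the KO#2-labelled libraries at 24 h, 1 of the 9 was higher than in wt cells, where 21.3% of all genes were called higher, a share larger than that of the germline genes. The gene was Asz1, at 2.35, 4.68 and 2.13 CPM against 1.11, 1.00 and 0.371 CPM, with a log2 difference of 1.89 ± 0.67 (edgeR, adjusted p = 0.034). It was no longer called without replicate 2 of KO#2 (1.44) or without any 1 of the wt libraries (1.54 to 2.21). The median log2 difference was 0.62 over the 9 genes and 0.20 over all genes. Sycp3, at 2.61, 3.06 and 3.30 CPM against 1.29, 1.90 and 0.432 CPM (1.34 ± 0.58, edgeR, adjusted p = 0.0752), and Mael, at 23.3, 21.7 and 20.5 CPM against 15.3, 15.7 and 12.8 CPM (0.58 ± 0.41, edgeR, adjusted p = 0.281), did not overlap between the groups and were not called. With Asz1 they made 3 of the 9 genes without overlap, a share near the 29.7% of all genes. Dazl (1.21 ± 0.56, edgeR, adjusted p = 0.0944), Stk31 (0.73 ± 0.55), Slc25a31 (0.62 ± 0.73), Tex101 (0.11 ± 0.66), Taf7l (0.04 ± 0.41) and Hormad1 (-0.04 ± 0.60) were not called.

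The count for the KO#2-labelled libraries at 24 h depended on the scaling. With library sizes alone, 7 of the 9 genes were called higher, while the median over all genes moved from 0.20 to 1.24 on the log2 scale and 10208 of all 16619 genes were called in either direction, against 6197 with TMM scaling. The value of Hormad1 changed from -0.04 to 1.06 in that setting and was not called. Fibroblast markers were higher in these libraries, with 6 of 8 called, and their part in the values was not tested.

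**Figure D4:**
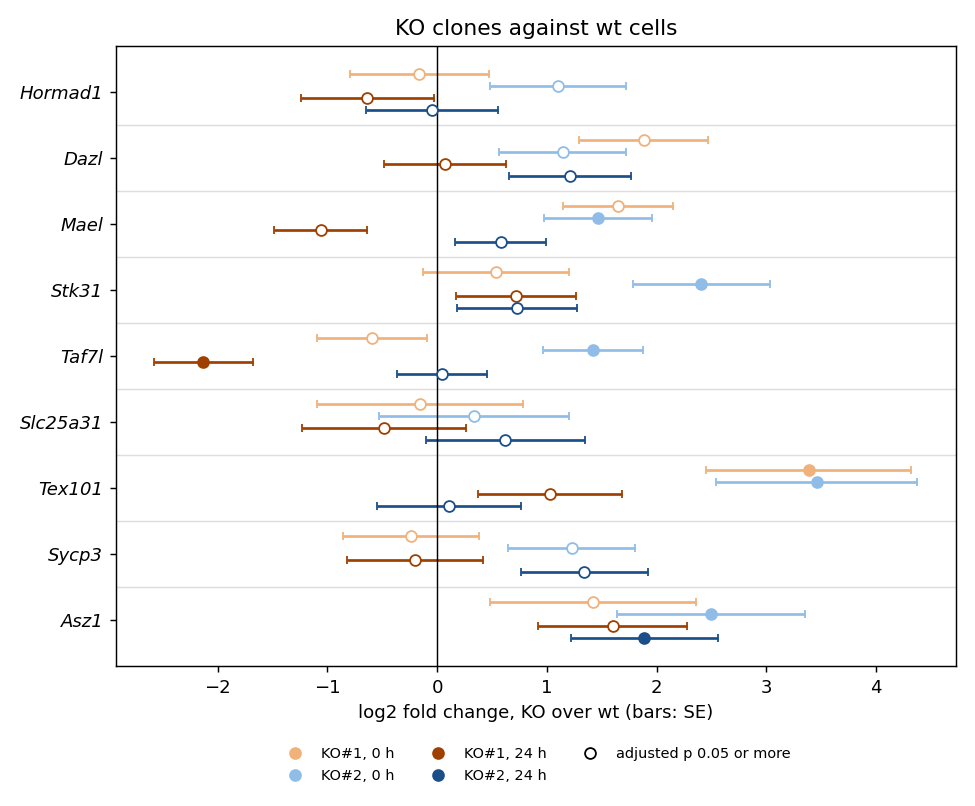
Log2 difference between each KO clone and wt cells (x axis) for the 9 germline genes (y axis), at 0 h in light and 24 h in dark colours. Points are estimates of edgeR, bars 1 SE to each side, and filled points have an adjusted p under 0.05; at 0 h 5 genes are filled for the KO#2-labelled libraries and 1 for KO#1, and at 24 h Taf7l is at -2.13 in KO#1 and Asz1 at 1.89 in the KO#2-labelled libraries.

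The KO clones also differed from each other. At 0 h 2 of the 9 germline genes were higher in the KO#2-labelled libraries than in KO#1, where 15.1% of all genes were called higher, and at 24 h 3 were, where the share was 19.3%. Taf7l passed at both times, 4.05-fold higher at 0 h (log2 difference 2.02 ± 0.47, edgeR, adjusted p = 0.00515) and 4.51-fold higher at 24 h (2.17 ± 0.45, edgeR, adjusted p = 0.00134). At both times the highest KO#1 library, 2.34 and 2.06 CPM, was below the lowest library labelled KO#2, 3.60 and 5.78 CPM. Stk31 passed at 0 h (1.87 ± 0.61, edgeR, adjusted p = 0.0303) and had a difference near 0 at 24 h (0.01 ± 0.54), where the sign changed to -0.02 with the size factors of DESeq2 in either tool and to -0.10 with only these groups fitted.

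Mael, at 23.3, 21.7 and 20.5 CPM against 6.83, 8.59 and 5.60 CPM in KO#1, was 3.12-fold higher at 24 h (1.64 ± 0.43, edgeR, adjusted p = 0.00676). At 0 h its difference was -0.18 ± 0.44 and turned to 1.09 (edgeR, adjusted p = 0.0464) without replicate 3 of KO#1. Sycp3 passed at 24 h, at 2.61, 3.06 and 3.30 CPM against 1.47, 1.43 and 0.249 CPM (1.54 ± 0.59, edgeR, adjusted p = 0.0489), and lost its call whichever single library was left out, with differences of 1.01 to 1.90. At 0 h Sycp3 did not pass (1.46 ± 0.58, edgeR, adjusted p = 0.0691). It was called there by DESeq2 (1.48), with library sizes alone (1.76) and with no filter (1.49). The Stk31 call at 0 h was lost without replicate 1 or 3 of KO#1 (1.72 and 1.66) or replicate 1 or 2 of KO#2 (1.92 and 1.74). Of these, leaving out replicate 1 of KO#1 or replicate 1 or 2 of KO#2 left Taf7l as the 1 call at 0 h. With library sizes alone 8 of the 9 genes were called at 24 h, all but Tex101, while the median over all genes moved from 0.14 to 1.21 on the log2 scale and 9986 of all 16619 genes were called in either direction, against 5878 with TMM scaling. Of the 8 fibroblast markers 2 were called higher in the KO#2-labelled libraries than in KO#1 at 0 h and 3 at 24 h, and their part in the differences was not tested.

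In several groups the 9 genes shared their highest or lowest library. In wt cells at 0 h replicate 2 was the highest library for 9 of the 9 genes and replicate 1 the lowest for 8. In the KO#2-labelled libraries at 0 h replicate 2 was the highest and replicate 3 the lowest for 9 of 9. At 24 h replicate 1 was the highest and replicate 3 the lowest of KO#1 for 8 of 9 genes each, and replicate 3 the lowest of wt cells for 8. In the KO#2-labelled libraries at 24 h the highest library was replicate 1, 2 or 3 for 2, 5 and 2 genes, and in KO#1 at 0 h the lowest was replicate 1, 2 or 3 for 4, 4 and 1. Summed over the 9 genes, the level ran from 12.5 to 61.1 CPM in wt cells at 0 h and from 94.7 to 225 at 24 h, from 36.7 to 128 and from 56.9 to 211 in KO#1, and from 70.4 to 116 and from 205 to 259 in the KO#2-labelled libraries. Across the 18 libraries, which share their groups and depth, the 36 pairs of genes had Pearson correlations of log2 CPM between 0.165 and 0.905 with a median of 0.681. After the group means were removed, the correlations ran from 0.244 to 0.925 with a median of 0.641. This is given as a description of these libraries. No such counts of extremes or pair correlations were made for sets of other genes, so they do not set the 9 genes apart.

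For each gene, the most similar of the other tested genes by Pearson correlation of log2 CPM over the 18 libraries was named by rule. These were Rad17 for Hormad1 (0.977), Gm13154 for Stk31 (0.975), Hmgcs1 for Mael (0.967), 4933406J08Rik for Asz1 (0.963), Bnip3l for Slc25a31 (0.941), Cntd1 for Sycp3 (0.928), Abhd5 for Tex101 (0.915), Gm3934 for Taf7l (0.904) and Vamp3 for Dazl (0.879). Each was the best match among all other tested genes, and the 18 points share groups and depth.

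Of 22 other germline genes known to be sensitive to methylation, 11 rose and 1 fell between 0 h and 24 h in wt cells, 5 rose in KO#1, and 10 rose and 1 fell in the KO#2-labelled libraries. Over the same time 26% of all genes were called higher and 24.7% lower in wt cells, 20.1% and 20.6% in KO#1, and 12.7% and 13.3% in the KO#2-labelled libraries. The list's median log2 fold changes were 1.37, 0.73 and 0.92, against 0.03, 0.00 and -0.03 over all genes. The 4 with the smallest p in wt cells were Tex19.1, a germline gene that restrains transposons (mean 64.6 CPM at 0 h and 326 at 24 h, log2 fold change 2.33 ± 0.41), Tex11, which is needed for meiotic crossovers (1.31 and 10.7 CPM, 2.89 ± 0.52), the piRNA pathway gene Tdrd1 (2 counts over the 3 libraries at 0 h, and 11 to 24 counts in each at 24 h) and the piRNA-binding Piwil2 (15.2 and 39.9 CPM, 1.38 ± 0.26). Tex19.1, Tex11 and Tdrd1 were also among the 4 with the smallest p in KO#1 (1.66 and 1.98 for the first pair) and in the KO#2-labelled libraries (2.30, 2.01 and 2.46). No fold is given for Tdrd1 in wt cells or KO#1, where its 0 h libraries held at most 3 counts each. Against wt cells, KO#1 had 3 of the 22 higher and 1 lower at 0 h (Piwil2, Rpl10l and Tuba3a higher, Tex14 lower), and again 3 higher and 1 lower at 24 h, which apart from Piwil2 were different genes (Dpep3 and Hormad2 higher, Stag3 lower). Tuba3a at 0 h ran from 13.4 to 81.8 CPM in KO#1 and from 9.34 to 15.7 CPM in wt cells, so its groups overlapped. Of all genes 3.99% were called higher and 2.68% lower in KO#1 at 0 h, and 6.25% and 3.61% at 24 h. The KO#2-labelled libraries had 4 of the list higher and 1 lower at 0 h, where 21.5% and 16.6% of all genes were called, and 4 higher at 24 h, where 21.3% were, so the list's share called higher was near that of all genes. Piwil2 was higher in KO#1 at 0 h (62.3 against 15.2 CPM, log2 difference 2.02 ± 0.26) and 24 h (1.27 ± 0.25), and in the KO#2-labelled libraries at 0 h (1.79 ± 0.26) and 24 h (1.12 ± 0.25), each with edgeR's adjusted p of at most 0.00287.

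Among 9 writers and erasers of DNA methylation, 4 rose and 3 fell over 24 h in wt cells, 4 rose and 3 fell in KO#1, and 5 rose and 1 fell in the KO#2-labelled libraries, beside the shares of all genes given for the germline list. The de novo methyltransferase Dnmt3a rose from 33.5 to 559 CPM in wt cells (log2 fold change 4.07 ± 0.36, edgeR, adjusted p = 3.15e-07), from 20.1 to 181 CPM in KO#1 (3.18 ± 0.35) and from 22.0 to 341 CPM in the KO#2-labelled libraries (3.95 ± 0.36). Dnmt3b (3.45 ± 0.37 in wt cells) and the cofactor Dnmt3l (2.88 ± 0.31) rose in all 3 lines as well, while Tet2, an enzyme that oxidises methylated cytosine, fell by 2.18 on the log2 scale in wt cells. At 24 h Dnmt3a was lower in KO#1 than in wt cells (-1.62 ± 0.32, edgeR, adjusted p = 0.00279). The glycosylase Tdg, which removes oxidised methylcytosine, was lower than in wt cells in KO#1 at 0 h (-1.55 ± 0.21) and 24 h (-0.97 ± 0.20) and in the KO#2-labelled libraries at 0 h (-1.65 ± 0.21) and 24 h (-1.10 ± 0.20), each with edgeR's adjusted p of at most 0.00426. Tet2 (1.98 ± 0.33) and Tet1 (1.65 ± 0.39) were higher in the KO#2-labelled libraries than in wt cells at 24 h. At 0 h Uhrf1 (-1.23 ± 0.29) and Dnmt1 (-0.96 ± 0.27), which maintain methylation, were lower there than in wt cells, and Dnmt3l was higher both there (0.97 ± 0.29) and in KO#1 (1.43 ± 0.30).

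Of 16 repressor genes, which were members of PRC1.6, H3K9 methyltransferases and the H3K4 demethylase Kdm5c, 4 rose and 3 fell over 24 h in wt cells, 1 rose and 4 fell in KO#1, and 7 rose in the KO#2-labelled libraries, against the same shares of all genes. Kdm5c was among those that fell in wt cells (-0.90 ± 0.27) and in KO#1 (-1.02 ± 0.27). E2f6 (1.20 ± 0.25), Pcgf6 (1.06 ± 0.23), Cbx3 (1.601 ± 0.46) and Tfdp1 (0.88 ± 0.26) were those that rose in wt cells. The H3K9 methyltransferase Setdb1 was lower than in wt cells in KO#1 at 0 h (-0.88 ± 0.22) and 24 h (-0.87 ± 0.22), and in the KO#2-labelled libraries at 0 h (-0.97 ± 0.22) and 24 h (-0.76 ± 0.22). Against wt cells, 1 of the 16 was higher and 4 lower in the KO#2-labelled libraries at 0 h, where 21.5% and 16.6% of all genes were. At 24 h 2 were higher and 2 lower, where 6197 of all 16619 genes were called in either direction. Mga, which binds E-boxes with MAX, was higher there at 0 h (1.11 ± 0.26) and 24 h (1.04 ± 0.26). Ring1 was lower at 0 h (-1.25 ± 0.31) and 24 h (-0.80 ± 0.30), Tfdp1 was lower at 0 h (-1.01 ± 0.26), and Rybp was higher at 24 h (1.04 ± 0.21). Protein and binding of these factors were not measured here.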

How the data were processed

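RNA-seq libraries of wt, KO#1 and KO#2 cells at 0 h and 24 h, 3 in each of the 6 groups, were assigned to groups from their sample labels. The authors deposited counts, as whole numbers of reads for each of 45706 genes that were not normalized. According to the study's methods, the authors sequenced stranded total RNA libraries as paired ends, trimmed adapters, removed ribosomal sequences and aligned reads to Ensembl's GRCm38 with STAR, and quantification is credited to Salmon and StringTie. Which of these tools wrote the deposited whole-number counts, the annotation release and the strand setting were not given in the sources used here. Of the gene identifiers, 45143 were found in GENCODE M21, which gave positions and lengths, and all 9 germline genes matched RefSeq promoter windows of GRCm38.p6.

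Analyses used R 4.3.3, edgeR 4.0.16, DESeq2 1.42.0 and Python 3.11.15 with pandas 2.3.3 and matplotlib 3.10.9. Genes were filtered with filterByExpr (minimum count 10), library sizes were scaled by TMM, and a quasi-likelihood model of the 6 groups was fitted to all 18 libraries. Each SE was obtained from the log2 fold change and its F statistic (absolute value over the root of F), CPM are counts per 1000000 of the TMM-scaled library size, and correlations used a prior count of 2. The steps were tested on simulated counts. No 2 libraries were identical (0 pairs), and library totals, given in the report, set the precision.

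The text describes all 9 genes, the lists of other germline genes, methylation enzymes, repressors and cell type markers, with the 4 genes of smallest p as examples, and the gene most similar to each of the 9. The members and lists were chosen with earlier results of these data known. Labels call the replicates biological. Numbers were taken to pair libraries where all 3 same-numbered pairs correlated above 0.1 in their deviations from group means, which held only for KO#1 against wt cells at 24 h (0.480, 0.223 and 0.587), with no source for the pairing beyond the numbers and these correlations. Alternatives were DESeq2, its size factors in edgeR, library sizes alone, no filter, a block for the replicate number, a fit of only the groups compared, a required absolute log2 fold change of 1 or more, and leaving out each library.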

Additional observations from a re-analysis of the deposited data

How the results depend on the processing

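Of 25 calls over the 9 germline genes and 11 comparisons, 12 held in every alternative that gave a value, and no called value changed sign in any alternative that kept all libraries. Leaving out 1 library gave 5 to 7 calls for wt cells over 24 h, 1 to 5 for KO#1, 1 to 3 for KO#2, 0 to 3 for KO#1 against wt cells at 0 h and 1 to 2 at 24 h, 1 to 7 for KO#2 against wt cells at 0 h and 0 to 1 at 24 h, 1 to 3 for KO#2 against KO#1 at 0 h and 2 at 24 h, and 0 to 1 and 0 for the differences in response of KO#1 and KO#2. The number of all genes called moved in these fits too. It went from 8429 to between 6822 and 8115 in wt cells over 24 h, and from 244 to between 51 and 563 for the response of KO#2. The value of Mael between the KO clones at 0 h was -0.18 with all libraries, 1.09 without replicate 3 of KO#1, and between -0.57 and 1.09 over all fits that left out 1 library.

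DESeq2 called 4 genes in KO#1 over 24 h, 3 in KO#1 against wt cells at 0 h, and 1 for each difference in response. It called 3 in KO#2 against KO#1 at 0 h, where Sycp3 was added (1.48, DESeq2, adjusted p = 0.046). Of all 16619 genes DESeq2 called 7396, 1515, 276, 1409 and 5081 in these comparisons. The main setting called 6774, 1108, 65, 244 and 4393. Library sizes alone gave 5 in wt cells over 24 h, where Dazl (0.89, adjusted p = 0.192) and Slc25a31 (1.55, adjusted p = 0.112) were lost, and 2 in KO#1, where Hormad1 was lost (1.11, adjusted p = 0.114) and Sycp3 was called lower (-1.51, adjusted p = 0.0397). It gave 3 in KO#1 against wt cells at 0 h, 8 and 7 in KO#2 against wt cells at 0 h and 24 h, and 8 in KO#2 against KO#1 at 24 h. Sycp3 was added in KO#2 against KO#1 at 0 h (1.76, edgeR, adjusted p = 0.0239). All genes called were 7432 in wt cells and 7331 in KO#1 over 24 h (8429 and 6774 in the main setting). They were 801 (1108) in KO#1 against wt cells at 0 h and 5508 (6329) and 10208 (6197) in KO#2 against wt cells. In KO#2 against KO#1 they were 3479 (4393) at 0 h and 9986 (5878) at 24 h. In this setting 10 of 99 values, none of them called in the main setting, changed sign. Without a filter the counts were 4 in KO#1 and 4 in KO#2 over 24 h, 3 and 3 in KO#1 against wt cells at 0 h and 24 h, 8 and 3 in KO#2 against wt cells, 4 and 5 in KO#2 against KO#1, and 2 for each difference in response. All genes called, of 29079 tested without a filter, were 6838 and 4581 over 24 h. They were 1522 and 1999 in KO#1 against wt cells, and 6401 and 6406 in KO#2 against wt cells. In KO#2 against KO#1 they were 4617 and 6100, and for the differences in response 307 and 1717. With only the groups compared, where 441 of 12792, 1841 of 13378 and 6134 of 14795 genes were called, the counts for the germline genes were 0 and 2 in KO#1 against wt cells at 0 h and 24 h and 2 in KO#2 against wt cells at 24 h. In all, 1 call was lost, Sycp3 in KO#2 against KO#1 at 24 h (1.46, adjusted p = 0.0705), and 5 were gained: Mael in KO#1 against wt cells at 24 h, Dazl in KO#2 against wt cells at 0 h and 24 h, and Hormad1 in KO#2 over 24 h and against KO#1 at 0 h. In this setting 94 of the 99 values could be had, and Tex101 did not pass the filter and was not tested in KO#1 against wt cells at 0 h or in wt cells over 24 h, so the 0 is no failed test of it. With the size factors of DESeq2 in edgeR the same Sycp3 call was lost (1.53, adjusted p = 0.0526) and Asz1 in KO#1 over 24 h was gained (1.84, adjusted p = 0.04997). All genes called in these comparisons were 5904 and 6896. The causes of these shifts were not tested.

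With the replicate number as a block, 0 of the 9 genes were called in KO#1 against wt cells at 0 h, where 1127 of all 16619 genes were. In KO#2 against wt cells at 24 h 2 of the 9 were called, where 6437 of all genes were. In all, 4 of the 25 calls were lost and 1, Sycp3 in the latter comparison, was gained. The other losses were Dazl (adjusted p = 0.0615) and Slc25a31 (adjusted p = 0.051) in wt cells over 24 h, where 5 calls were left, and Dazl (adjusted p = 0.0636) in KO#2 over 24 h, where 2 were left. In KO#1 against wt cells at 24 h, where the numbers paired the libraries, the block left the 1 call. The block was shared by all 6 groups, so this was no paired test of that comparison. Elsewhere the samples share only a number, and the mean correlation of deviations was 0.0531 for libraries of the same number and -0.0266 for others. Depth limits Asz1, Tex101 and Slc25a31 most, since replicate 1 of wt cells at 0 h had 0 counts of each.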

Other observations

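The cell state markers moved in all 3 lines over 24 h. For comparison with the counts given here, 26% of all genes were called higher and 24.7% lower in wt cells, 20.1% and 20.6% in KO#1, and 12.7% and 13.3% in the KO#2-labelled libraries. All 3 genes of the primed epiblast (Fgf5, Otx2 and Pou3f1) rose in wt cells, KO#1 and the KO#2-labelled libraries, and 4 of 6 pluripotency genes fell in each line. Of 6 primordial germ cell markers 5 were tested, and 3 fell and 1 rose in wt cells, 4 fell and 1 rose in KO#1, and 4 fell in the KO#2-labelled libraries (edgeR, adjusted p under 0.05). Their summed level ran from 100.6 to 241 CPM over the libraries at 0 h and from 26.6 to 37.0 CPM at 24 h. Of 6 markers of later germ cells, which include Ddx4 and Sycp1 of the germline list above, 4 were tested and 3 rose in the wt libraries, 1 in KO#1 and 3 in the KO#2-labelled libraries, with a summed level of 5.25 to 15.6 CPM at 0 h and 32.7 to 53.3 CPM at 24 h in wt cells. Of the 8 fibroblast markers 6 fell and 1 rose over 24 h in wt cells and in KO#1, and 3 fell in the KO#2-labelled libraries.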
